A study of Mus musculus with 19 samples.

Results

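Heat shock proteins, their DnaJ cochaperones and the chaperonins were followed in FDCPmix cells after tamoxifen, through 64 genes of 9834 with a single symbol on the array. Members were the genes named Hspa to Hsph with a number, Hsp90, Dnaja, Dnajb or Dnajc with a number, Cct2 to Cct8, and Tcp1. They were 8 HSP70 and HSP110 genes, 2 HSP90 genes, 35 DnaJ genes, 10 genes of the cytosolic chaperonin, 2 of the mitochondrial chaperonin and 7 small heat shock protein genes. FDCPmix is a mouse haematopoietic progenitor line that depends on interleukin-3. On 2-colour arrays, 4 samples of treated cells were set against non-treated cells. In the time course, cells taken 3, 7 and 12 h (4 arrays per time) or 23 h (3 arrays) into tamoxifen, an oestrogen receptor ligand, were set against treated cells at 0 h. For the first group the labels give neither the agent nor the time, and the labels of all groups also say ES cell line, with no explanation. No dose, no transgene that tamoxifen might act on and no statement that replicates were separate cultures is given in the sources used here, so p-values measure only the spread between these arrays.

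Each value is a log2 ratio of the cells' own RNA to the reference RNA, with the base of 2 and the own RNA as numerator both being assumptions. With the sign of every Cy3 array changed, 13 values of the named genes turned direction, and these are given for the genes the results turn on. The own RNA was in Cy5 on replicates 1 and 2 and in Cy3 on replicates 3 and 4, and 23 h had no replicate 2 here. A ratio cannot show that a gene is expressed, so the cell type could not be checked against its markers, and fewer cells of a type and less RNA per cell cannot be told apart. The 4 times share the kind of reference, so a difference in the 0 h cells would enter all of them. The arrays 7 h replicate 4 and 23 h replicate 3 went against their groups in the median of 11 measured neutrophil and monocyte markers (of 16 listed). It was 0.40 on the first, against -0.30, -0.22 and -0.43 on the other 7 h arrays. On the second it was 0.88, against -0.86 and -0.92 on the other 23 h arrays. Each array also repeats 1 extreme value of absolute size over 16. That value was positive on every Cy5 array and negative on every Cy3 array except 7 h replicate 4, where it was 16.291. On 23 h replicate 3 it was -16.61, so the 2 arrays differ in this. The cause was not tested. Results of the time course include 7 h replicate 4 and 23 h replicate 3 with their deposited signs, after each array was centred on its median. Where it matters, they are also given without both. Of the 64 genes, 60 had values on all 19 arrays, and the arrays' number limits the precision: the median SD of a member between arrays was 0.23 in the treated group and 0.13 to 0.16 at the 4 times.

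HSP70 proteins bind and release unfolded protein segments in a cycle driven by ATP. DnaJ proteins start that cycle through their J domain, and HSP110 proteins restart it by exchanging nucleotide. HSP90 acts later, on nearly folded clients such as kinases and steroid receptors, including the oestrogen receptor that binds tamoxifen. The cytosolic chaperonin is a ring of Tcp1 and the Cct subunits that folds actin and tubulin, and the mitochondrial chaperonin is made of Hspd1 and its lid Hspe1. Genes of the cytosolic set are classically induced through heat shock elements, and those of the endoplasmic reticulum through the endoplasmic reticulum stress response element.

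Promoter windows from RefSeq (GRCm38.p6, 250 bases before to 50 after the start) are shown for the 3 chaperone genes of the endoplasmic reticulum that hold the whole stress response element, CCAAT and CCACG with 9 bases between them, and for Hspd1 as the example of a dense heat shock element. Capitals mark matches on either strand. The windows are at chr2:34771840-34772139 on the + strand for Hspa5, chr10:86705395-86705694 on the - strand for Hsp90b1, chr14:118937682-118937981 on the + strand for Dnajc3 and chr1:55087883-55088182 on the - strand for Hspd1, each printed 5′ to 3′ along its gene.
Hspa5: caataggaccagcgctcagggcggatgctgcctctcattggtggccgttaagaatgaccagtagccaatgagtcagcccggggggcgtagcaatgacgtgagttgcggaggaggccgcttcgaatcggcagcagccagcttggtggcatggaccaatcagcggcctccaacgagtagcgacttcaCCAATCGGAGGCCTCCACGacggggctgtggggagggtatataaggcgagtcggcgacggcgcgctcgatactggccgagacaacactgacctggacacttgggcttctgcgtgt
Hsp90b1: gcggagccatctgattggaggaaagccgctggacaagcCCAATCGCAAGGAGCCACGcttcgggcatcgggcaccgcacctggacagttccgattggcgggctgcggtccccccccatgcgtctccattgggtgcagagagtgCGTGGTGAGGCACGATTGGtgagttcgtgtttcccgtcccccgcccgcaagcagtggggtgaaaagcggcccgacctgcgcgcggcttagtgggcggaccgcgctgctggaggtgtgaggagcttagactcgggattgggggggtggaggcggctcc
Dnajc3: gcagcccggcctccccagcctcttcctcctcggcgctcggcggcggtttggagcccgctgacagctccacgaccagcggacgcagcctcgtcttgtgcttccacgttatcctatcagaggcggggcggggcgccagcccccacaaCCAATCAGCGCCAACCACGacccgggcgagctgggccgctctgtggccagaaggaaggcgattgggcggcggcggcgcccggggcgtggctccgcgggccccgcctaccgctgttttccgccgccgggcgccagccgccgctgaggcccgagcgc
Hspd1: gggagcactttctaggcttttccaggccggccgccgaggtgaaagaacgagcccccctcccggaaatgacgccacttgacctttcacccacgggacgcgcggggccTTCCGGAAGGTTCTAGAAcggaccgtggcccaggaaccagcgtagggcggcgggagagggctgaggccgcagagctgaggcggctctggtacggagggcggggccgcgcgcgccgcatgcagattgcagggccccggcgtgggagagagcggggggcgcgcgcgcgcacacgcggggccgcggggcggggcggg

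Of the 64 members, 54 had a window in the table. The stress response element, searched on both strands, stood in the windows of 3 members, Hspa5, Hsp90b1 and Dnajc3, and in 0.119% of the 32851 windows of all genes. Hsp90b1 held it 2 times. The heat shock motif GAANNTTC stood in 15 members and in 7.86% of all windows, and TTCNNGAA in 8 members and in 8.52% of all windows. Both motifs overlapping by 3 bases stood in 4 members, Dnajb6, Hspd1, Hspe1 and Hsph1, and in 0.603% of all windows. The capitals in Hspd1 mark 3 such overlapping matches. The windows of Hspd1 and Hspe1, neighbours on opposite strands, overlap, so they share them. A match describes letters and shows no binding.

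No member was called at an adjusted p under 0.05 in any comparison (limma, Benjamini-Hochberg over all features). Members with an unadjusted p under 0.05 numbered 3 of 64 in treated cells, 3 of 63 at 3 h, 9 of 62 at 7 h, 2 of 63 at 12 h and 4 of 64 at 23 h. The shares of all features under that threshold were 6.21%, 10.8%, 7.09%, 6.25% and 3.36%, and the shares called after adjustment were 0%, 0%, 0%, 0.0186% and 0%. The members' share stood above that of all features at 7 h and 23 h and below it in treated cells, at 3 h and at 12 h. At 7 h the 9 were 1 without replicate 2. At 23 h the 4 were 1 without replicate 1 and 9 without replicate 3. In the treated group 3 members, Hsp90b1, Dnajc5g and Dnaja3, were called when all 19 arrays were fitted with a common spread, as were 4.86% of all features. The plot of every member on every array shows how few colours repeat across a group.

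**Figure D1:**
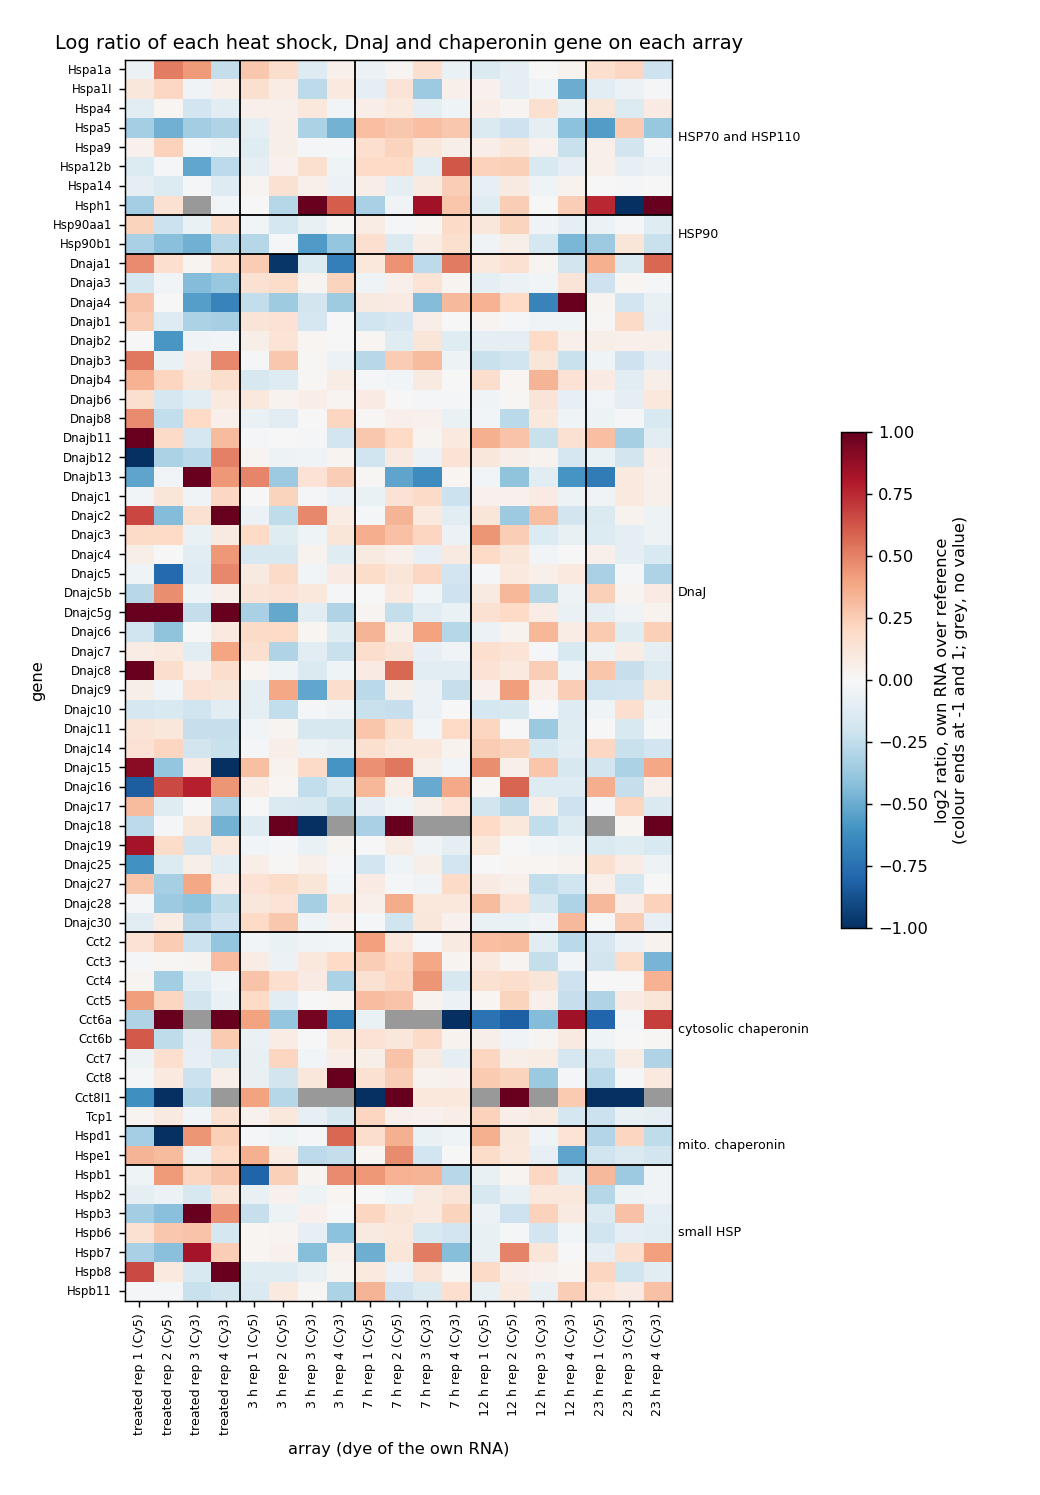
Log2 ratio of own RNA to reference RNA (colour, ends at -1 and 1, grey where there is no value) for the 64 genes (rows, by family) on the 19 arrays (columns, with the dye of the own RNA). Hspa5 is blue on the 4 treated arrays, at -0.30 to -0.48, and red on the 4 arrays at 7 h, at 0.27 to 0.30.

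Hspa5, the HSP70 of the endoplasmic reticulum known as BiP, lay on 1 side of 0 on every array in treated cells, at 7 h and at 12 h. Its log2 ratio was -0.34, -0.48, -0.35 and -0.30 on the treated arrays against non-treated cells, all below 0. At 7 h it was 0.30, 0.27, 0.30 and 0.27 against 0 h, all above 0 and close together. At 12 h it was -0.14, -0.21, -0.09 and -0.41, all below 0, and no array of the 7 h and 12 h groups overlapped. At 3 h it was -0.09, 0.06, -0.32 and -0.47, on both sides of 0, and at 23 h -0.56, 0.25 and -0.38, where the value above 0 came from replicate 3.

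The fitted value of Hspa5 was -0.37 in treated cells (SE 0.10, n = 4, limma adjusted p = 0.792) and 0.28 at 7 h (SE 0.11, n = 4, limma adjusted p = 0.666), 1.22-fold higher than at 0 h. Neither passed the threshold. With the sign of every Cy3 array changed, the treated value was -0.04, the 7 h value -5e-04 and the 12 h value 0.038. Without the 2 arrays that went against their groups it was 0.27 at 7 h (limma adjusted p = 0.317) and -0.47 at 23 h (limma adjusted p = 0.167). The F test across the 4 times gave Hspa5 an unadjusted p of 0.0175 (limma adjusted p = 0.756).

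**Figure D2:**
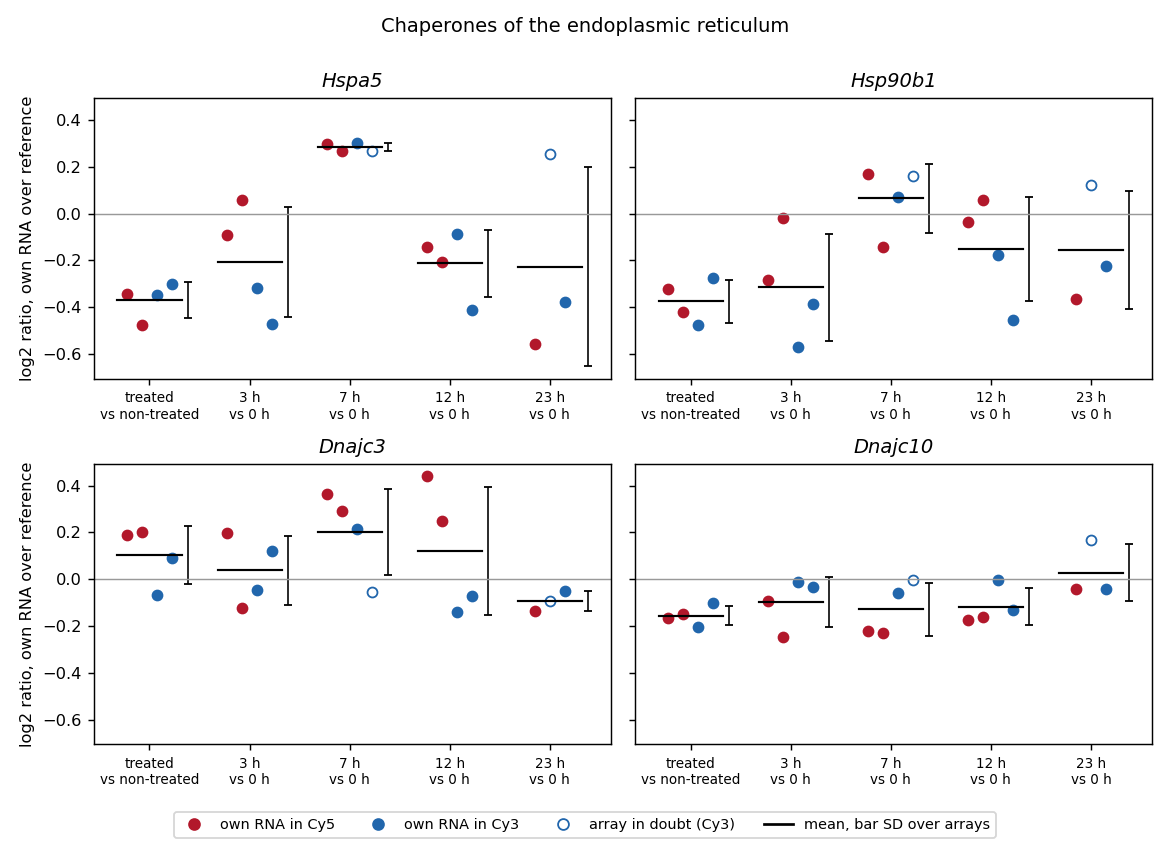
Log2 ratio on each array of Hspa5, Hsp90b1, Dnajc3 and Dnajc10 (vertical axis) in the 5 comparisons (horizontal axis), with the mean as a line and the SD over arrays as a bar. Points are coloured by the dye of the own RNA, and open circles are 7 h replicate 4 and 23 h replicate 3. Hspa5 lies at -0.37 on average in treated cells and at 0.28 at 7 h.

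The other HSP70 and HSP110 genes lay nearer to 0 or scattered between arrays. Hspa9, the mitochondrial HSP70 also called mortalin, was 0.17, 0.23, 0.12 and 0.06 at 7 h, above 0 on every array, and its 4 probes averaged between 0.12 and 0.18 there. The fitted value was 0.14 (SE 0.06, n = 4, limma adjusted p = 0.670). Hspa1a, the classic heat-inducible HSP70, was -0.06, 0.51, 0.42 and -0.24 in treated cells and stayed between -0.21 and 0.27 at the 4 times. Its groups lay on both sides of 0 throughout. Hspa4, an HSP110-type exchange factor, lay between -0.19 and 0.16 on all 19 arrays, and Hspa14, a divergent HSP70, between -0.14 and 0.25. Each is an average of 3 probes that differed in treated cells. Their means there were 0.08, -0.04 and -0.33 for Hspa4 and 0.07, -0.08 and -0.26 for Hspa14. Hsph1, the main heat-inducible HSP110 scattered widely: at 23 h it was 0.75, -1.01 and 1.05. At 7 h 7 of the 8 HSP70 and HSP110 genes lay above 0, against 49.4% of all features, with a median of 0.11, and Hspa1l lay below. Without the 2 arrays in doubt it was 7 of 8 with a median of 0.05, and with the signs of both changed 5 of 8. With the sign of every Cy3 array changed the direction turned, to 3 of 8 above 0 and a median of -0.01.

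Of the HSP90 genes, Hsp90b1, the paralogue of the endoplasmic reticulum known as GRP94, lay on the same side of 0 as Hspa5 in treated cells. It was -0.32, -0.42, -0.48 and -0.27 on the treated arrays against non-treated cells, all below 0 (-0.37, SE 0.10, n = 4, limma adjusted p = 0.793). At 3 h it was -0.29, -0.02, -0.57 and -0.39 against 0 h, again all below 0 (-0.32, SE 0.10, n = 4, limma adjusted p = 0.424). At 7 h it was 0.17, -0.14, 0.07 and 0.16, on both sides of 0. With the sign of every Cy3 array changed, it was 0.00175 in treated cells and 0.163 at 3 h. At 12 h it was -0.04, 0.06, -0.17 and -0.46, and at 23 h -0.37, 0.12 and -0.22. Hsp90aa1, the stress-inducible cytosolic HSP90, stayed between -0.22 and 0.22 on all 19 arrays, and its group lay on 1 side of 0 only at 23 h, at -0.06, -0.02 and -0.12.

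The DnaJ genes were the largest family, and in treated cells and at 3 h about as many lay above 0 as below. Of 35, 18 lay above 0 in treated cells and 17 below, against 52.1% of all features above 0. At 3 h 17 lay above and 18 below, against 50% above 0. At 7 h 23 of 34 tested lay above 0, against 49.4% of all features, with a median of 0.03. At 12 h it was 23 of 35, against 51.1%, with a median of 0.02. By array, 22 and 25 of 35 lay above 0 at 7 h with the own RNA in Cy5, and 18 and 15 of 34 in Cy3. At 12 h it was 23 and 24 of 35 in Cy5, and 17 and 11 of 35 in Cy3. The part of the dye was not tested. At 23 h 15 of 35 lay above 0, against 50.5% of all features.

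DnaJ proteins of the endoplasmic reticulum lay on both sides of 0. Dnajc10, a disulfide reductase that works with BiP in degradation, was -0.17, -0.15, -0.20 and -0.10 in treated cells, and -0.22, -0.23, -0.06 and -0.00 at 7 h. It lay below 0 on every array of the treated, 3 h, 7 h and 12 h groups. Over the time course arrays, however, Dnajc10 averaged -0.17 with the own RNA in Cy5 and only -0.015 with it in Cy3. The dye term was -0.14 (limma unadjusted p = 0.0171). The fitted value was -0.13 at 7 h (SE 0.05, n = 4, limma adjusted p = 0.658) and -0.12 at 12 h (SE 0.05, n = 4, limma adjusted p = 0.768). Dnajc3, a BiP cochaperone that also inhibits eIF2alpha kinases, was 0.36, 0.29, 0.21 and -0.06 at 7 h, and only replicate 4 lay below 0 (0.20, SE 0.08, n = 4, limma adjusted p = 0.675). Dnajb11, the cochaperone that hands unfolded clients to BiP, was 0.27, 0.20, 0.03 and 0.10 at 7 h, all above 0, and -0.01, -0.00, -0.02 and -0.19 at 3 h, all below 0. Over the 8 measured genes of the endoplasmic reticulum, the array medians in treated cells lay between -0.25 and -0.01. By gene they were split there: 4 had a fitted value above 0 and 4 below, against 52.1% of all features above 0. Dnajb11 was 1.44, 0.19, -0.17 and 0.32 in treated cells, and Dnajc3 was 0.19, 0.20, -0.07 and 0.09. At 7 h they lay between 0.05 and 0.22, and 6 of the 8 genes had a fitted value above 0 against 49.4% of all features, with a median of 0.07. It was 5 of 8 without the 2 arrays in doubt, and 4 of 8 with a median of 0.01 with the sign of every Cy3 array changed.

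Among cytosolic DnaJ genes, Dnaja1, a general HSP70 partner, was 0.47, 0.17, 0.03 and 0.18 in treated cells, all above 0. At 3 h it was 0.26, -0.97, -0.14 and -0.69 (-0.39, SE 0.18, n = 4, limma adjusted p = 0.462), and replicate 1 lay above 0. Dnajb1, the heat-inducible partner of HSP70, lay between -0.34 and 0.25 in treated cells and between -0.20 and 0.19 at the 4 times. Dnajb4, a close relative of Dnajb1, was 0.18, 0.02, 0.34 and 0.14 at 12 h, all above 0 (0.17, SE 0.06, n = 4, limma adjusted p = 0.687). It also lay above 0 on every treated array, at 0.35, 0.22, 0.12 and 0.17, but its 2 probes differed there, at 0.48 and -0.06 on average.

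Dnaja3, a mitochondrial DnaJ protein and partner of Hspa9, was -0.17, -0.03, -0.43 and -0.38 in treated cells, all below 0 (-0.25, SE 0.10, n = 4, limma adjusted p = 0.793). At 3 h it was 0.15, 0.18, 0.03 and 0.22, all above 0 (0.15, SE 0.05, n = 4, limma adjusted p = 0.424). The groups do not overlap, but their references differ, and with the sign of every Cy3 array changed the treated value was 0.15. Dnajc19, part of the import motor of the inner mitochondrial membrane, was -0.14, -0.12 and -0.16 at 23 h, all below 0 (-0.13, SE 0.05, n = 3, limma adjusted p = 0.9997). Dnajc11, another mitochondrial DnaJ protein, was 0.28, 0.16, -0.03 and 0.20 at 7 h (0.15, SE 0.06, n = 4, limma adjusted p = 0.684).

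Dnajc5, the cysteine string protein that guards vesicle fusion, was -0.32, -0.01 and -0.31 at 23 h (-0.21, SE 0.08, n = 3, limma adjusted p = 0.9997). Replicate 3 was the value near 0, and without the 2 arrays in doubt the fitted value was -0.32 (limma adjusted p = 0.126). Its relative Dnajc5g, chiefly known from testis, was 3.63, 1.34, -0.24 and 1.24 in treated cells, on both sides of 0 (1.49, SE 0.49, n = 4, limma adjusted p = 0.793). At 3 h it was -0.33, -0.51, -0.11 and -0.30, all below 0, with the smallest unadjusted p of any member in any comparison (-0.31, SE 0.07, n = 4, unadjusted p = 0.000474, limma adjusted p = 0.424). Dnajc28 was 0.33, 0.06 and 0.23 at 23 h, all above 0 (0.25, SE 0.09, n = 3, limma adjusted p = 0.9997).

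The other named DnaJ genes scattered more or lay nearer to 0. Dnajc17, a spliceosome-associated protein, lay below 0 on all 4 arrays at 3 h, at -0.00 to -0.26, and on 3 of 4 at 12 h. Its 2 probes differed at 3 h, at -0.28 and 0.00275 on average. Dnajb13, a cilium and sperm flagellum protein, was -0.03, -0.40, -0.11 and -0.59 at 12 h, and Dnajc5b, another relative of Dnajc5, was 0.24, 0.03 and 0.08 at 23 h. Dnajc18 had no value on 4 arrays and ranged between -2.44 and 2.04 on the others.

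At 7 h the tested genes of the cytosolic chaperonin had fitted values on 1 side of 0. All 9 subunit genes tested there, counting the Cct8-like Cct8l1, lay above 0, against 49.4% of all features. Their median was 0.14, and none was called. Cct6a, with values of -0.06 and -3.31, was not tested. The array medians were 0.15 and 0.20 with the own RNA in Cy5 and 0.09 and 0.03 with it in Cy3, all above 0. It was also 9 of 9 above 0 without the 2 arrays in doubt (median 0.17, against 48.5% of all features). The same held with the signs of both changed (median 0.13, against 48.3%). With the sign of every Cy3 array changed it was 9 of 9 too (median 0.08, against 50.7%). That last count cannot show steadiness, since a gene then stays above 0 only where its Cy5 arrays outweigh its Cy3 arrays.

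Of the 9 subunits tested at 7 h, 4 lay above 0 on every array. Cct3 was 0.25, 0.20, 0.39 and 0.03, all above 0 (0.21, SE 0.09, n = 4, limma adjusted p = 0.694). Tcp1 was 0.22, 0.05, 0.04 and 0.07, and Cct8 was 0.15, 0.24, 0.04 and 0.04, both on 1 side. Cct6b, a testis form of the zeta subunit, was 0.15, 0.11, 0.19 and 0.03 (0.12, SE 0.05, n = 4, limma adjusted p = 0.658). Cct2, Cct4, Cct5 and Cct7 each had 1 array below 0, at -0.02, -0.16, -0.06 and -0.09, which was replicate 3 for Cct2 and replicate 4 for the others. Cct8l1 scattered between -1.74 and 2.96. Cct6a had only 2 values at 7 h, -0.06 and -3.31, and was not tested there.

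At the other times the chaperonin lay nearer to 0. At 3 h 7 of 9 tested subunits lay above 0, against 50% of all features, with a median of 0.04. At 12 h it was 7 of 9, against 51.1%, with a median of 0.03. At 12 h the array medians were 0.15 and 0.12 with the own RNA in Cy5 and 0.02 and -0.10 with it in Cy3. At 23 h 9 of 10 lay below 0, against 49.5% of all features, with a median of -0.07 and array medians of -0.21, -0.01 and 0.03. By array, 9 of 10 subunits lay below 0 on replicate 1, 7 of 10 on replicate 3 and 3 of 9 on replicate 4. Tcp1 was -0.22, -0.08 and -0.09 at 23 h, below 0 on each array, and did not overlap with its 7 h values. In treated cells 5 of the 10 subunits lay above 0 and 5 below, against 52.1% of all features above 0. Cct6a was -0.30, 2.15 and 2.78 there (1.85, SE 0.63, n = 3, limma adjusted p = 0.793), and Cct8l1, a gene like Cct8, was -0.61, -1.58 and -0.28 (-0.69, SE 0.28, n = 3, limma adjusted p = 0.803). Cct8l1 was -1.70 and -2.23 at 23 h (-1.97, SE 0.92, n = 2, limma adjusted p = 0.9997), but -1.74, 2.96, 0.10 and 0.10 at 7 h, and with the signs of the 2 arrays in doubt changed the 23 h value was 0.27.

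**Figure D3:**
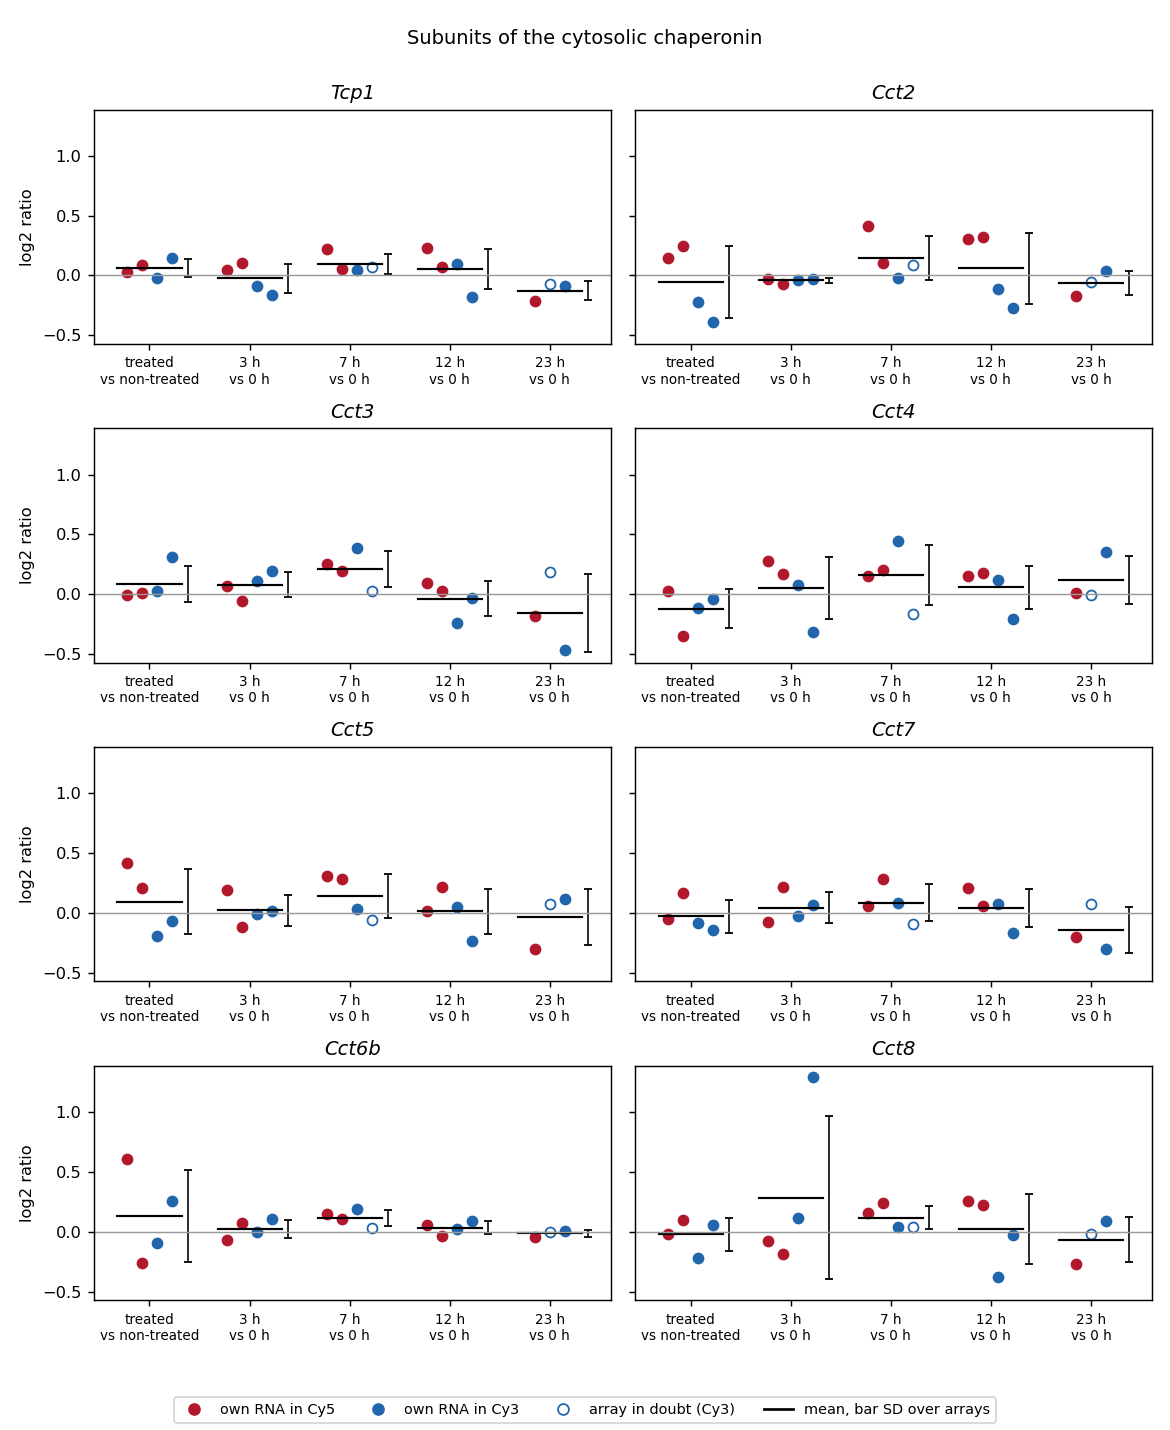
Log2 ratio on each array of 8 subunits of the cytosolic chaperonin (vertical axis) in the 5 comparisons (horizontal axis), with the mean as a line, the SD over arrays as a bar, colours for the dye of the own RNA and open circles for the 2 arrays in doubt. At 7 h all 8 means lie above 0, and Tcp1, Cct3, Cct6b and Cct8 have all 4 arrays above 0.

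The mitochondrial chaperonin was less steady. Hspd1 was -0.34, -1.72, 0.44 and 0.24 in treated cells, and its probes differed there, at 0.11 and -0.95. At 7 h it was 0.18, 0.36, -0.07 and -0.05, above 0 with the own RNA in Cy5 and below 0 with it in Cy3. Hspe1 was 0.34, 0.31, -0.06 and 0.20 in treated cells and -0.20, -0.14 and -0.18 at 23 h, below 0 on every array. Hspd1 was -0.30, 0.22 and -0.25 at 23 h, above 0 on replicate 3. At 23 h both genes had a fitted value below 0, with a median of -0.11, but the median was 0.03 without replicate 1 and -0.23 without replicate 3.

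Small heat shock proteins hold unfolded proteins in oligomers without using ATP. At 3 h all 7 had a fitted value below 0, against 50% of all features, but by little: the median was -0.07 and the array medians were -0.12, 0.04, -0.05 and 0.02. With the sign of every Cy3 array changed it was 4 of 7, against 48.3%. Hspb1, the best known and heat-inducible one, was -0.80, 0.24, 0.03 and 0.48 at 3 h and 0.43, 0.35, 0.34 and -0.28 at 7 h. The lone value below 0 was replicate 1 at 3 h and replicate 4 at 7 h. Hspb3, a small form of muscle, was 0.21, 0.12, 0.10 and 0.22 at 7 h, all above 0 (0.16, SE 0.07, n = 4, limma adjusted p = 0.684). Hspb8, which works with Bag3 in selective autophagy, was 0.66, 0.10, -0.15 and 1.25 in treated cells. Hspb2, another muscle form, was -0.29, -0.05 and -0.03 at 23 h (-0.15, SE 0.06, n = 3, limma adjusted p = 0.9997).

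**Figure D4:**
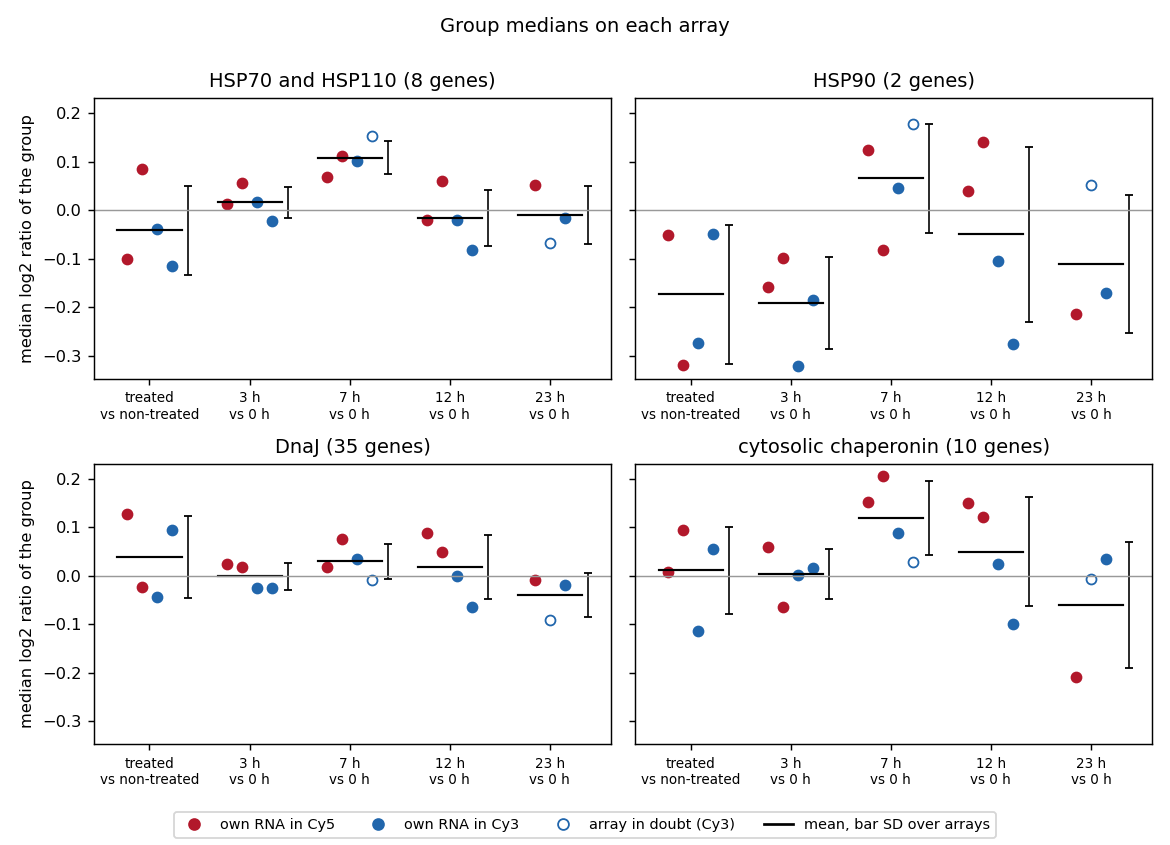
Median log2 ratio of each family on each array (vertical axis) in the 5 comparisons (horizontal axis), with the mean as a line and the SD over arrays as a bar; colours and open circles as for the single genes. At 7 h the 4 array medians lie above 0 for the cytosolic chaperonin, at 0.03 to 0.20, and for HSP70 and HSP110, at 0.07 to 0.15. The median of the 2 HSP90 genes lies below 0 on all 4 arrays of the treated and 3 h groups. In treated cells, however, 1 of the 2 had a fitted value above 0 (Hsp90aa1) and 1 below (Hsp90b1).

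Over all families, the fitted value lay above 0 for 48 of 62 members at 7 h, against 49.4% of all features, with a median of 0.07. On the single arrays 45 of 64 and 46 of 63 members lay above 0 with the own RNA in Cy5. With it in Cy3 the counts were lower, 38 of 62 and 34 of 63, and the lowest share came from replicate 4. The part of the dye was not tested. Fitted values above 0 numbered 46 of 62 without the 2 arrays in doubt (48.5% of all features) and 42 of 62 with their signs changed (48.3%). With the sign of every Cy3 array changed they numbered 40 of 62 (50.7%). Every array lay above 0 for 10 members, Hspa5, Hspa9, Tcp1, Cct3, Cct6b, Cct8, Hspb3, Dnajb11, Dnajc14 and Dnajc28, and for 5.75% of all features. With an unadjusted p under 0.05, 8 members lay above 0, against 3.46% of all features, and 1, Dnajc10, lay below, against 3.62%. In place of 8 it was 2 without replicate 1, 1 without replicate 2 and 3 without replicate 3.

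In the other comparisons the members were closer to an even split. In treated cells 33 of 64 lay above 0, against 52.1% of all features, and 8 lay below 0 on all 4 arrays, against 7.23% of all features. At 3 h 31 of 63 lay above 0, against 50%. At 12 h 41 of 63 lay above 0, against 51.1%, but by array the count moved with the dye: 39 of 63 and 45 of 64 with the own RNA in Cy5, and 29 of 63 and 23 of 64 with it in Cy3. The part of the dye in this was not tested. The dye term of the fit called none of the 64 members and 0.0124% of all features. No member was called at that threshold at any time either. The dye term, Cy5 minus Cy3, was 0.22 for Dnajc14 (limma unadjusted p = 0.00328), its smallest p among members. For Dnajb11 it was 0.26 (limma unadjusted p = 0.00466), for Hspe1 0.34 (limma unadjusted p = 0.00487) and for Dnajc5b 0.21 (limma unadjusted p = 0.00747). For Dnajc28 it was 0.25 (limma unadjusted p = 0.0109), and for Dnajc11 0.19 (limma unadjusted p = 0.0143). Hspb2, Dnajc10, Dnajc16, Dnajc8 and Hspb3 also had an unadjusted limma p under 0.05 for the dye term. The share of all features under that threshold is not given here. At 23 h 43 of 64 lay below 0, against 49.5% of all features. Without replicate 1 it was 30 of 63, and with uncentred values 20 of 64, where 78.5% of all features lay above 0. The deposited median of 23 h replicate 3 was 0.233, against 0 and 0.003 on the other 23 h arrays. Of the 11 neutrophil and monocyte markers 10 had a fitted value below 0 at each of the 4 times, with a median of -0.14 at 3 h, -0.16 at 7 h, -0.37 at 12 h and -0.32 at 23 h, and their part in these values was not tested.

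At 23 h against 3 h, which share no array, 28 of 63 members lay above 0, against 50% of all features, and none was called. Members with an unadjusted p under 0.05 numbered 4, against 5.46% of all features. All 8 HSP70 and HSP110 genes had a fitted difference below 0, against 50% of all features, with a median of -0.03, while both HSP90 genes lay above 0, with a median of 0.09. Neither count held without the 2 arrays in doubt, where 5 of 8 HSP70 and HSP110 genes lay below 0, against 49.3% of all features, and 1 of 2 HSP90 genes above 0. With the sign of every Cy3 array changed, 4 of 8 HSP70 and HSP110 genes lay below 0, against 51.1%, and the HSP90 median was -0.12. In the F test across the 4 times 2 of 61 members had an unadjusted p under 0.05, Dnajc5g (0.00752) and Hspa5 (0.0175), against 6.59% of all features. Dnajc5 (0.0625) and Dnaja3 (0.0720) followed. In 3 of 62 members, Dnajb11, Hspa5 and Tcp1, every array of one time lay on one side of 0 and every array of another on the other side, against 7.15% of all features.

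Partners of these chaperones outside the naming rule were counted too: of 57 listed cochaperones, exchange factors and proteases, 40 were tested (39 at 12 h) and none was called. Lonp1, the Lon protease of the mitochondrial matrix, was -0.65, -0.52, -0.62 and -0.61 in treated cells, all below 0 (-0.60, SE 0.10, n = 4, limma adjusted p = 0.792). Sil1, the exchange factor of BiP, was -0.36, -0.31, -0.07 and -0.16 at 3 h, all below 0 (-0.22, SE 0.05, n = 4, limma adjusted p = 0.424). It was -0.20, -0.22, -0.08 and -0.20 in treated cells, on the same side as Hspa5 and Hsp90b1. The other ends of the list scattered widely: Bag1, an HSP70 exchange factor, was -0.62, -0.97 and -1.21 at 23 h (-0.99, SE 0.40, n = 3, limma adjusted p = 0.9997), but -0.12, 0.01, 2.35 and 0.07 in treated cells. Grpel1, the exchange factor of Hspa9, was -0.11, 0.43, 0.97 and 0.77 at 12 h (0.51, SE 0.23, n = 4, limma adjusted p = 0.787). Bag3, the partner of Hspb8, was 0.80, 0.38, -0.04 and 0.93 in treated cells (0.52, SE 0.21, n = 4, limma adjusted p = 0.793).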

How the data were processed

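The authors deposited 1 log ratio per spot, taken here as log2; base and numerator are assumed, and how the values were normalized is not given in the sources used here. Per the labels' protocols, cDNA made from total RNA carried Cy3 or Cy5 by indirect labelling. On each array the repeated extreme value (absolute size over 16) was set to missing, the array was centred on its median, and probes of 1 gene were averaged. Of 20205 probes 13891 had 1 symbol, 5 several and 6309 none; the members had 103 probes. For 27 members with several probes, these lay on both sides of 0 in 13 or 14 members per comparison. limma 3.58.1 (R 4.3.3) fitted group means with the dye of the own RNA (0.5 for Cy5, -0.5 for Cy3), with Benjamini-Hochberg adjustment over all features. The 4 treated arrays were fitted alone because their spread is wider, and the 15 others together, with features on at least 3 of 4 arrays (2 of 3 at 23 h). A member was called at an adjusted p under 0.05. Named genes were the 6 members with the smallest p in each of the 5 comparisons with a reference, all called members, the 4 with the smallest F test p, and members named by role. Of the partner genes the 2 highest and 2 lowest per comparison could be named. Members and lists were chosen with earlier results of these data known. The fits were tested on simulated data. Arrays shared at most 0.289% of their values. The lowest Pearson correlation between arrays of 1 orientation was -0.17. Within a group, arrays of opposite dye had Spearman correlations of -0.10 to 0.04 in treated cells and 0.07 to 0.10 at 3 h. These were -0.08 to 0.06 at 7 h, -0.21 to -0.05 at 12 h and -0.27 to 0.12 at 23 h. Arrays of the same dye had 0.12 to 0.18 in treated cells and 0.17 to 0.36 at 3 h. With the same dye it was -0.25 to 0.35 at 7 h, 0.16 to 0.51 at 12 h and -0.16 at 23 h.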

Additional observations from a re-analysis of the deposited data

Results flagged for a closer look

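The median of the 7 small heat shock proteins on 7 h replicate 4 was 0.01, against 0.09, 0.10 and 0.10 on the other 7 h arrays, a gap far larger than that among the rest. By chance about 1 in 20 groups would stand out this way. In 3 of 62 members, against 7.15% of all features, every array of one time lay on one side of 0 and every array of another time on the other side. These differences were not tested. Dnajb11 at 7 h stood 0.20 above 3 h. Hspa5 at 12 h minus 7 h was -0.50. Tcp1 at 23 h minus 7 h was -0.22.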

How the results depend on the processing

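Over all alternatives 785 values of the named genes were the same, 4 passed the threshold only in an alternative and 14 reversed. Of the family medians 1048 moved by less than the spread between arrays and 40 by more. Many alternatives left out an array of another time or changed only the spread, so they could hardly move a value. Cct8l1 at 23 h, for example, was -1.97 in all 13 fits that left out 1 array. The high counts of unchanged values therefore do not show that the values are steady. Of the 14 reversals, 13 came with all Cy3 arrays given the opposite sign. In treated cells Hsp90b1 became 0.00175, Cct6a -0.93 and Dnaja3 0.15. At 3 h Hsp90b1 became 0.163, Dnaja1 0.026 and Dnajc17 0.065. At 7 h Hspa5 became -5e-04. At 12 h Dnajb4 became -0.071, Hspa5 0.038 and Dnajb13 0.068. At 23 h Dnajc19 became 0.033, Dnajc5 0.00587 and Cct8l1 0.27. The cause was not tested.

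Counts over all features changed more than the members did. In treated cells 773 features and 3 members, Hsp90b1 (-0.37, limma adjusted p = 0.0410), Dnajc5g (1.49, limma adjusted p = 0.0238) and Dnaja3 (-0.25, limma adjusted p = 0.0499), were called with all 19 arrays in 1 fit, and 609 features and 1 member, Dnajc5g (1.49, limma adjusted p = 0.0325), with the replicate number as a block. That block rests only on shared numbers: same-numbered arrays correlated at 0.03 on average, and arrays of other numbers but the same dye at 0.04. Without 7 h replicate 4 and 23 h replicate 3 together, 16 features were called at 3 h, 74 at 7 h, 42 at 12 h, 59 at 23 h, 13 at 23 h against 3 h and 10 in the F test. With the signs of both changed, an alternative chosen after seeing the data, the counts were 33, 203, 61, 129, 21 and 17, and Cct8l1 at 23 h became 0.27. No member was among them. At 12 h, where 3 features were called, the count was 0 with each time fitted on its own arrays, 0 with the extreme values kept, 0 with values on every array required, 12 with no minimum number of arrays and 20 with array weights. Leaving out 1 array at a time gave 0 to 11 features at 3 h, 0 to 12 at 7 h, 0 to 7 at 12 h, 0 to 1 at 23 h, 0 to 3 at 23 h against 3 h, 0 to 3 in the F test and 0 in treated cells. The number of arrays, the unknown base and direction, and the missing spot intensities limit every value.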
